A study of Canis lupus familiaris with 222 samples.

Results

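Mixed and complex tumors, which are histologic types of canine mammary tumor (CMT), were compared by RNA-seq. The mixed tumors were benign mixed tumor and carcinoma in benign mixed tumor (n = 23), and the complex tumors were complex adenoma and complex carcinoma (n = 49). These 72 tumors were taken, by the diagnosis in the sample labels and the study's clinical table, from 222 libraries of mammary tumor and adjacent normal mammary tissue of female dogs. The mixed group held 8 benign mixed tumors and 15 carcinomas in benign mixed tumor, and the complex group held 13 complex adenomas and 36 complex carcinomas, so that 21 tumors were benign and 51 malignant. A further complex tumor had no line in the clinical table and was left out here. The dogs were 5 to 16 years old in the mixed group and 6 to 17 years old in the complex group, of several breeds, and either intact or neutered. Each library came from 1 piece of bulk tissue of 1 dog kept in RNAlater, and poly(A) RNA was sequenced. Adjacent normal tissue was also sequenced for 9 dogs with mixed and 24 dogs with complex tumors.

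Both tumor types hold epithelial (luminal) and myoepithelial cells, the contractile cells that lie between the epithelium and the basement membrane. In mixed tumors, cartilage or bone forms within the tumor as well, while complex tumors lack it. The chondrocytes of cartilage and the osteoblasts of bone each make a matrix with proteins of their own, which is why an expression difference between the types can be asked about. In bulk tissue, fewer cells of a type and less RNA per cell cannot be told apart.

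Expression was given as FPKM (mapped fragments, scaled to transcript length and to library size) for 24580 Ensembl gene identifiers. The files do not pair these identifiers with gene symbols, so the matrix genes of cartilage and bone, the myoepithelial and luminal markers and other pathway lists were not analysed here by name. The labelled tissue was for the same reason not checked against marker genes. Identifiers with a mean of at least 0.5 FPKM over the tumors compared were tested on the log2(FPKM + 1) scale, on which the change of a weakly expressed gene is understated. A call means a limma adjusted p under 0.05 together with a difference of at least 1 on that scale, and every log2 difference below is mixed minus complex unless stated.

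Across all 72 tumors, with malignancy as a covariate, 0 of 14507 identifiers were called (0% of those tested), and 0 had an adjusted p under 0.05 by limma. The smallest adjusted p was 0.0521. These counts depended on how single libraries entered the fit. With array weights, which give outlying libraries less influence, 928 identifiers had an adjusted p under 0.05 and 32 were called, and without complex replicate 10 alone the counts were 102 and 3. The differences were small for most identifiers. Their median standard error was 0.129, and for 13709 identifiers (94.5%) the 95% interval lay within a difference of 1 in either direction. Of the fitted differences, 8 were at least 1 higher and 30 at least 1 lower in mixed tumors, and the extremes were 1.29 and -1.91. At an unadjusted p under 0.05, 345 identifiers (2.38%) were higher and 2618 (18%) were lower in mixed tumors.

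The median difference over all identifiers was -0.110, and whole libraries also differed between the groups. The median FPKM of a library over the 14507 identifiers ranged from 3.67 to 7.91, with a median of 6.38, in mixed tumors, and from 2.98 to 8.23, with a median of 7.41, in complex tumors. The mean was 6.28 ± 1.04 (SD, n = 23) against 7.09 ± 0.984 (SD, n = 49), a mixed-minus-complex difference of -0.806 (two-sided permutation test with 100000 resamples, p = 0.00258, adjusted p = 0.0232 over 18 make-up measures). The groups overlapped. Malignant mixed and complex tumors had means of 6.12 ± 1.14 (SD, n = 15) and 7.19 ± 0.779 (SD, n = 36; permutation p = 0.0007, adjusted p = 0.0126). Benign tumors had means of 6.57 ± 0.803 (SD, n = 8) and 6.80 ± 1.41 (SD, n = 13; permutation p = 0.682). Whether the gap differed between malignant and benign tumors was not tested. In adjacent normal tissue the order was the opposite, with a median of 6.60 in dogs with mixed tumors and 6.32 in dogs with complex tumors. The means there were 6.73 ± 0.722 (SD, n = 9) and 6.22 ± 1.15 (SD, n = 24). These normal groups overlapped, and their difference was not tested.

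**Figure D1:**
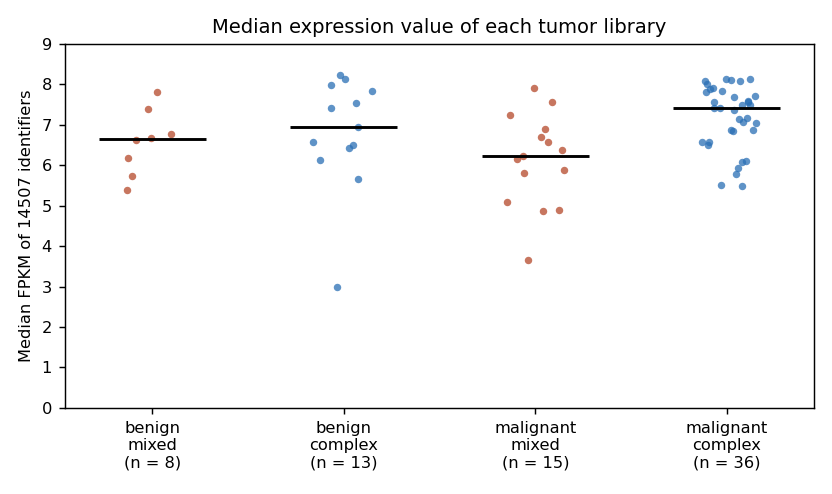
Median FPKM of 14507 identifiers (y axis, linear) in each tumor library, by malignancy and histology, with 1 point per tumor and a line at the group median. Malignant mixed tumors (red) have a median of 6.23 and malignant complex tumors (blue) one of 7.43, while the benign groups have 6.66 and 6.96, and 1 benign complex tumor lies at 2.98.

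The 50 identifiers with the highest mean FPKM took up 36.7% ± 3.39 (SD, n = 23) of the FPKM sum in mixed and 36.2% ± 3.16 (SD, n = 49) in complex tumors (permutation p = 0.603). The number of identifiers at 1 FPKM or more was 12351 ± 467 (SD, n = 23) in mixed and 12616 ± 430 (SD, n = 49) in complex tumors (permutation p = 0.0225, adjusted p = 0.101). The number of mapped reads was 52007828 to 119219828 in mixed and 58740076 to 127946473 in complex tumors (permutation p = 0.776), and the mapping rate was 91.2% ± 1.23 and 91.5% ± 1.14 (SD; permutation p = 0.276). Surgery in 2016 was more frequent in the mixed group, 11 of 23 against 9 of 49 tumors, with an adjusted p of 0.0761 (two-sided Fisher's exact test, p = 0.0127). Within the tumors of 2016 the mean median FPKM differed by -0.569, mixed minus complex (11 against 9, permutation p = 0.188), and within those of 2017 by -0.593 (10 against 34, permutation p = 0.156). The part of these library properties in the weak differences was not tested.

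When each library was brought to the same upper quartile, the median difference became -0.023 and 0 identifiers had an adjusted p under 0.05. The identifiers with an unadjusted p under 0.05 were then 895 higher and 1212 lower, so that 57.5% were lower, against 88.4% on FPKM as deposited. After quantile normalization the median difference was 0.007, and 1331 were higher and 864 lower, a share of 39.4% lower. A single identifier, higher in mixed tumors, had an adjusted p under 0.05 (0.041 by limma) after quantile normalization, and it did not reach a difference of 1. The direction in which the weak differences leaned therefore changed with the scaling, while the count of calls was 0 on each of the 3 scales. Both scalings bring the libraries to a common level, so a median difference near 0 is partly built in.

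**Figure D2:**
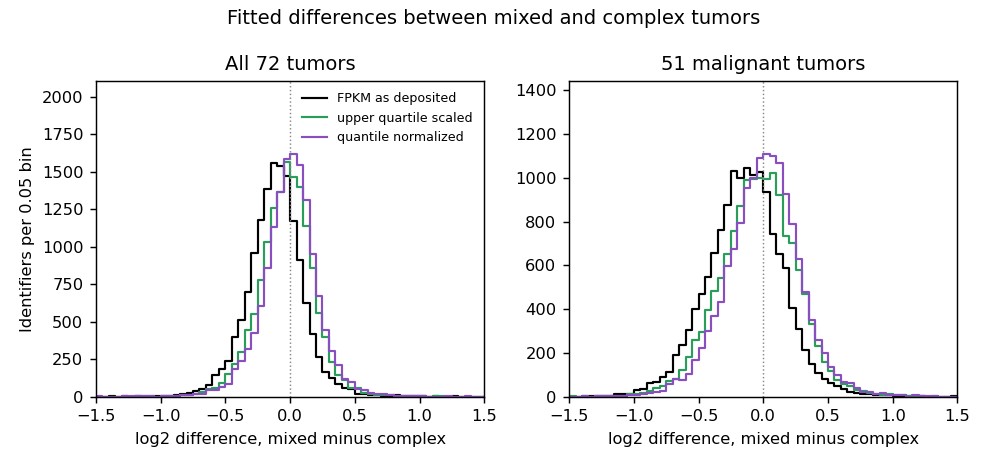
Number of identifiers per bin of fitted log2 difference, mixed minus complex (x axis), in all 72 tumors (left) and in the 51 malignant tumors (right), with FPKM as deposited (black), scaled to 1 upper quartile (green) or quantile normalized (purple). The black curve is centred below 0, at medians of -0.110 and -0.137, and the purple curves are centred at 0.007 and 0.009.

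Estrogen receptor (ER) staining was positive in 20 of 22 mixed and 44 of 49 complex tumors, and the HER2 score was 3 in 2 of 22 and 10 of 49. Dogs were neutered in 8 of 23 and 9 of 49 cases, and malignant tumors made up 65.2% and 73.5%. Of the 5 expression clusters that the authors had derived from these data by non-negative matrix factorization (NMF1 to NMF5), NMF3 held 2 mixed and 5 complex tumors, and NMF4 and NMF5 together held 3 and 2. The basal class, assigned by the authors from expression, held 3 of 23 and 7 of 49. None of these shares differed at an unadjusted p under 0.05 (two-sided Fisher's exact test, lowest p = 0.146), nor did age (permutation p = 0.353). These groups are too small for such tests to show that the shares are equal.

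Although no identifier passed the test over all 72 tumors, the values of 4 show how the groups lay to each other. They have the smallest p in each direction among identifiers with a mean of at least 5 FPKM in the higher group.

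ENSCAFG00000031432 had a lowest, median and highest value of 0, 1.13 and 55.5 FPKM in mixed tumors and of 0, 0 and 8.79 FPKM in complex tumors. In the mixed group 21 of 23 tumors lay above the complex median, and 4 lay above every complex tumor. As the complex median was 0, any value above 0 lay above it. The mean was 5.65 FPKM in mixed and 0.901 FPKM in complex tumors. The mixed mean, by which the identifier was eligible, lay far above the mixed median and so rested on a few high tumors. The log2 difference was 1.12 (SE 0.28, limma adjusted p = 0.0949), and it was 1.05 among benign tumors. Among malignant tumors it was 1.16 (limma adjusted p = 0.0352), which meets the call in that stratum, and it was 1.23 and 1.31 there on the other scales (adjusted p = 0.0568 and 0.0645). The normal tissue of the dogs did not show it, with medians of 0.428 and 0.593 FPKM (log2 difference -0.09, 95% interval -0.57 to 0.39).

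ENSCAFG00000014817 ranged from 4.82 to 27.5 FPKM in mixed tumors, with a median of 10.8, and from 3.20 to 15.1 FPKM in complex tumors, with a median of 7.77. In 7 mixed tumors, all malignant, the value was above that of every complex tumor. The log2 difference was 0.49 (SE 0.13, limma adjusted p = 0.111) over all tumors. Among malignant tumors it was 0.77 (SE 0.15, limma adjusted p = 0.0164), and 0.90 and 0.93 on the other scales (adjusted p = 0.00961 and 0.00954), with all 15 mixed tumors above the complex median, and among benign tumors it was -0.11 (SE 0.20). The difference between these contrasts, 0.89 (SE 0.25), did not pass the test of the interaction (limma p = 0.000792, adjusted p = 0.377).

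ENSCAFG00000032208 had the smallest p of all, with a small shift. Its values were 17.9, 28.7 and 38.4 FPKM (lowest, median and highest) in mixed and 24.9, 36.8 and 53.5 FPKM in complex tumors, and 20 of 23 mixed tumors lay below the complex median. The log2 difference was -0.33 (SE 0.07, limma adjusted p = 0.0521), and it was -0.23 after scaling to the upper quartile. Among malignant tumors it was -0.28 (limma adjusted p = 0.0335), and -0.14 and -0.18 there on the other scales (adjusted p = 0.185 and 0.0983). On FPKM as deposited, benign and malignant tumors together, it was -0.15 in 2016 and -0.29 in 2017.

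ENSCAFG00000018419 was measured at 0.944, 4.27 and 15.2 FPKM in mixed and at 2.5, 9.63 and 28.4 FPKM in complex tumors, and 21 of 23 mixed tumors lay below the complex median. The log2 difference was -0.79 (SE 0.17, limma adjusted p = 0.0521) over all tumors, -0.80 among malignant tumors (adjusted p = 0.0305) and -0.78 among benign tumors. Among malignant tumors it was -0.68 and -0.58 on the other scales (adjusted p = 0.0607 and 0.0967). On FPKM as deposited, benign and malignant tumors together, it was -1.15 in 2016 and -0.42 in 2017. In normal tissue the medians were 5.27 and 5.68 FPKM (log2 difference -0.01, 95% interval -0.41 to 0.39). The sign of each of these 4 differences was the same on all 3 scales and within 2016 and 2017. With surgery year as a further covariate their limma adjusted p over all tumors was 0.286 to 0.343. The tumors of 2018 (2 mixed and 6 complex) were not fitted alone. The 4 were picked by their p over the same tumors, so the kept sign is no separate support.

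**Figure D3:**
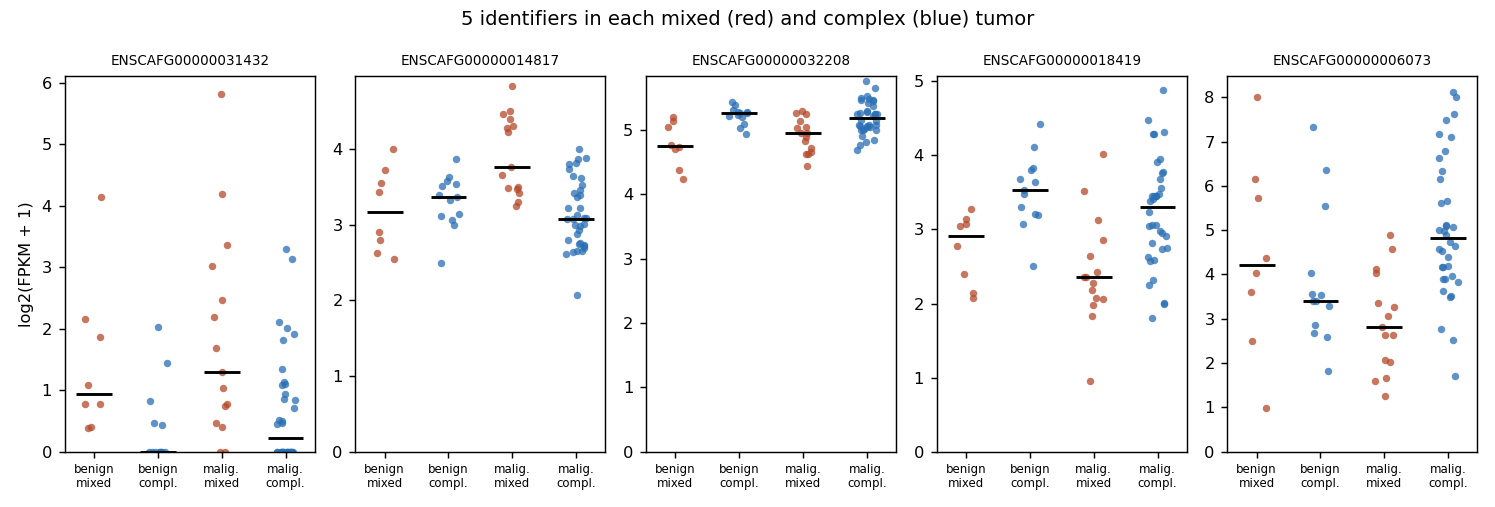
log2(FPKM + 1) of 5 identifiers (panels, each with its own y axis from 0) in benign and malignant mixed (red) and complex (blue) tumors, 1 point per tumor, with a line at the group median. The groups overlap in every panel, and in the last panel (ENSCAFG00000006073) the mixed median is lower among malignant and higher among benign tumors.

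The same contrast was then made within each stratum of malignancy. Among malignant tumors (15 mixed and 36 complex), 37 of 14482 identifiers were called (0.255% of those tested), of which 5 were higher and 32 lower in mixed tumors. By adjusted p alone 1463 identifiers differed (10.1%), 87 of them higher and 1376 lower. At an unadjusted p under 0.05, 595 were higher (4.11%) and 3748 lower (25.9%). The median difference was -0.137. Scaled to the upper quartile, 1 identifier was called and 9 had an adjusted p under 0.05. After quantile normalization these counts were 1 and 21. The 37 identifiers kept their sign on both scales. The 5 higher ones had larger differences there (median 1.16 on FPKM as deposited, 1.23 scaled to the upper quartile and 1.31 quantile normalized), with limma adjusted p of 0.0568 to 0.0784. For the 32 lower ones the median went from -1.10 to -0.98 and -0.93, and 14 and 10 of them remained at a difference of at least 1, with limma adjusted p of 0.048 to 0.119 over both scales.

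The calls among malignant tumors also rested on a few mixed tumors. Leaving out mixed replicate 5, 11 or 16 left 0 calls, and leaving out replicate 23 left 1. These were the 4 malignant mixed tumors with the lowest median FPKM (3.67 for replicate 16, 4.87 for replicate 23, 4.89 for replicate 5 and 5.09 for replicate 11). Leaving out replicate 10, with a median FPKM of 7.57, gave 99 calls, and leaving out replicate 18 (7.24), 8 (7.91) or 19 (6.89) gave 82, 73 and 64. Without replicate 1 (5.87) or 4 (5.81) the counts were 18 and 23. Complex replicates 33, 40 and 11 gave 63, 61 and 60 calls when left out. For 5 tumors (2 mixed and 3 complex) the sample labels and the clinical table disagreed on malignancy. The 2 mixed ones were replicates 4 and 16, which the sample labels call benign mixed tumors. With malignancy as in the labels (13 against 33 malignant tumors), 0 identifiers were called and 0 had an adjusted p under 0.05. This setting also leaves out replicate 16, so it is not separate from the result without that tumor.

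**Figure D4:**
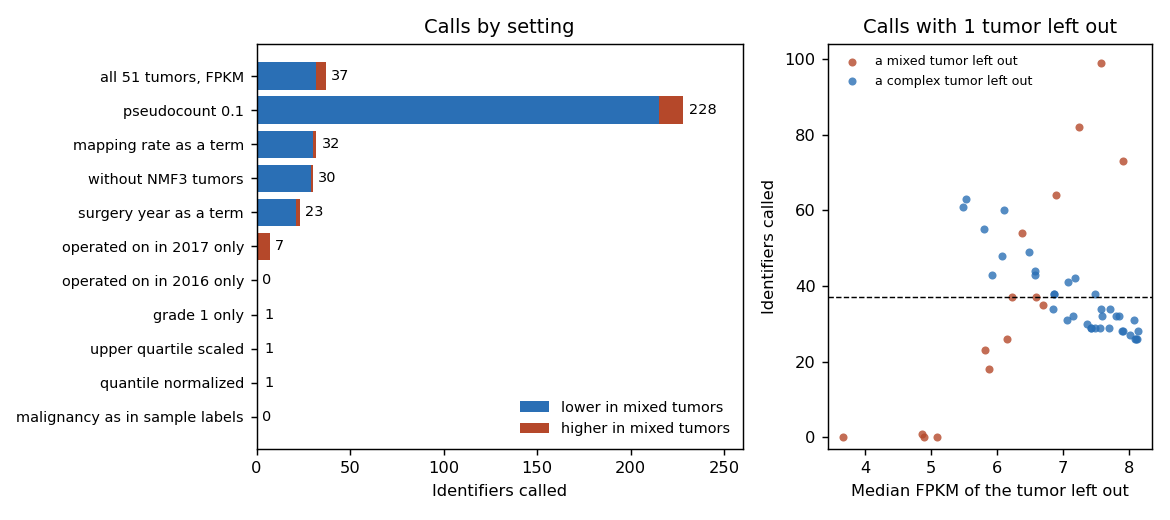
Left, number of identifiers called among malignant tumors under each setting, as bars from 0 split into lower (blue) and higher (red) in mixed tumors. Right, number called with 1 tumor left out against the median FPKM of that tumor, with 1 point per tumor left out and the dashed line at the 37 calls with all tumors, where leaving out any of 4 mixed tumors with a low median FPKM leaves 0 or 1 call.

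ENSCAFG00000006073 was the single identifier called among malignant tumors on all 3 scales, and it was chosen after its values were seen. In malignant mixed tumors it had a lowest, median and highest value of 1.38, 6.06 and 28.5 FPKM, and in malignant complex tumors of 2.26, 27.2 and 279 FPKM. The value was below the complex median in 14 of 15 mixed tumors, and 18 of 36 complex tumors were above the highest mixed tumor. The log2 difference was -2.11 (SE 0.44, limma adjusted p = 0.0241), -2.0 after scaling to the upper quartile (adjusted p = 0.048) and -1.90 after quantile normalization (adjusted p = 0.0499). It was -2.01 within 2016 (8 against 7 tumors, limma adjusted p = 0.684) and -2.06 within 2017 (6 against 23, adjusted p = 0.113).

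In benign tumors the same identifier lay the other way, with medians of 17.6 FPKM in mixed and 9.50 FPKM in complex tumors (log2 difference 0.55, 95% interval -1.03 to 2.13). The 2 highest of the 8 benign mixed tumors, at 70.5 and 255 FPKM, and the highest of the 13 benign complex tumors, at 160 FPKM, belonged to NMF3. The interaction was -2.66 (SE 0.84, limma p = 0.00223), which did not pass over all identifiers (adjusted p = 0.377). It was high in the 3 mammary osteosarcomas, at 113, 352 and 386 FPKM. It was also high in the 4 malignant complex tumors of NMF3, at 98.5 to 256 FPKM, and NMF3 held no malignant mixed tumor. High values were not confined to NMF3. The other 32 malignant complex tumors ranged from 2.26 to 279 FPKM with a median of 23.4, and a simple tumor of NMF2 had 430 FPKM. Without the 4 malignant complex tumors of NMF3 the log2 difference was -1.83 (limma adjusted p = 0.0445).

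Among benign tumors (8 mixed and 13 complex), 0 of 14356 identifiers were called (0%), and the smallest adjusted p by limma was 0.995. At an unadjusted p under 0.05, 81 were higher (0.564%) and 510 lower (3.55%). The median difference was -0.038 and the median standard error 0.230. The 95% interval lay within a difference of 1 for 82.3% of identifiers, fewer than with all tumors. In the interaction of histology with malignancy, 0 of 14507 identifiers were called (0%), with a smallest adjusted p of 0.377, and 1819 had an unadjusted p under 0.05 (428 or 2.95% higher and 1391 or 9.59% lower).

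The malignant and benign strata share no tumor, so the calls of the first could be looked at in the second. Of the 32 identifiers lower in malignant mixed tumors, 22 (68.8%) were also lower in benign mixed tumors, 1 of them at an unadjusted p under 0.05, where 56.6% of all 14123 identifiers tested in both strata were lower. Of the 5 higher, 3 were higher in benign tumors as well, where 43.4% of all identifiers were. Of the 1375 identifiers lower by adjusted p alone among malignant tumors and also tested among benign ones, 465 (33.8%) were lower in the benign stratum, and their median log2 difference was -0.54 among malignant and 0.08 among benign tumors. Of the 86 such identifiers higher among malignant tumors, 41 (47.7%) were higher in the benign stratum.

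Adjacent normal tissue gave the background of the comparison. Between the normal tissue of 9 dogs with mixed and 24 dogs with complex tumors, 0 of 14565 identifiers were called (0%), with a smallest limma adjusted p of 0.991. At an unadjusted p under 0.05, 333 were higher (2.29%) and 52 lower (0.357%), and the median difference was 0.091. When each tumor was set against the normal tissue of the same dog, 0 of 14657 identifiers differed between the types by the call (0%, smallest limma adjusted p 0.631), and 62 (0.423%) had an unadjusted p under 0.05 with a higher and 1006 (6.86%) with a lower tumor-minus-normal difference in mixed tumors. The median of that difference was -0.172 on FPKM as deposited, -0.061 scaled to the upper quartile and 0.005 after quantile normalization.

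Simple tumors, which are made up of a single cell type, mostly epithelial, served as a common point of reference. Mixed tumors were set against 77 simple tumors with malignancy as a covariate, and 6 of 14527 identifiers were called (0.0413%), all higher in mixed tumors. By unadjusted p under 0.05, 695 were higher (4.78%) and 1129 lower (7.77%). Complex tumors set against the same 77 simple tumors gave 54 calls of 14551 (0.371%), 53 higher and 1 lower in complex tumors, and 576 (3.96%) had an adjusted p under 0.05 by limma. These comparisons share the simple tumors, and the groups of 23 and 49 differ in size, so their counts do not rank the types by distance. For the identifiers described above, ENSCAFG00000031432 was 0.96 (SE 0.28) higher in mixed than in simple tumors on the log2 scale and -0.16 (SE 0.18) in complex against simple tumors. ENSCAFG00000018419 was -0.55 (SE 0.20) in mixed and 0.22 (SE 0.15) in complex against simple tumors, and none of these 4 values passed the test over all identifiers (limma adjusted p of 0.152, 0.723, 0.268 and 0.493).

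Bone is formed in mammary osteosarcoma as well, and 3 such tumors in the series allowed a list to be drawn without gene symbols. The difference that set the list did not use the 72 tumors, but only identifiers tested in those tumors could enter it. Identifiers high in osteosarcomas but below the minimum mean FPKM over the 72 tumors were thus left out. The 97 tested identifiers with a mean log2(FPKM + 1) at least 3 higher in the osteosarcomas than in simple tumors were taken. Their median difference between mixed and complex tumors was -0.18, where that of all identifiers was -0.11. In mixed tumors 28 of the 97 (28.9%) were higher, where 27.4% of all identifiers were. At an unadjusted p under 0.05, 2 were higher and 6 lower, with 2.38% and 18% of all identifiers as background, and 0 passed after adjustment by limma. Taken from a difference of at least 2 or 4, the list had 261 or 29 identifiers and a median of -0.14 or -0.20.

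Averaged per tumor, the log2 level of the 97 identifiers was 3.07 ± 0.91 (SD, n = 23) in mixed and 3.22 ± 0.72 (SD, n = 49) in complex tumors, with medians of 2.98 and 3.11. Simple tumors had 2.65 ± 0.72 (SD, n = 77) and the osteosarcomas 6.18 to 7.01. No mixed or complex tumor reached the lowest osteosarcoma. In both types the highest values belonged to tumors of NMF3. The 2 mixed tumors of NMF3, both benign, had 4.75 and 5.99, and the other 21 mixed tumors had at most 4.07. The 5 complex tumors of NMF3 had 4.22 to 5.56, and the other 44 at most 3.89. The 3 osteosarcomas that gave the list were of NMF3 as well, so high values in NMF3 tumors follow in part from how the list was drawn. NMF3 was itself drawn by the authors from expression in these tumors, so this is a description and not a test.

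**Figure D5:**
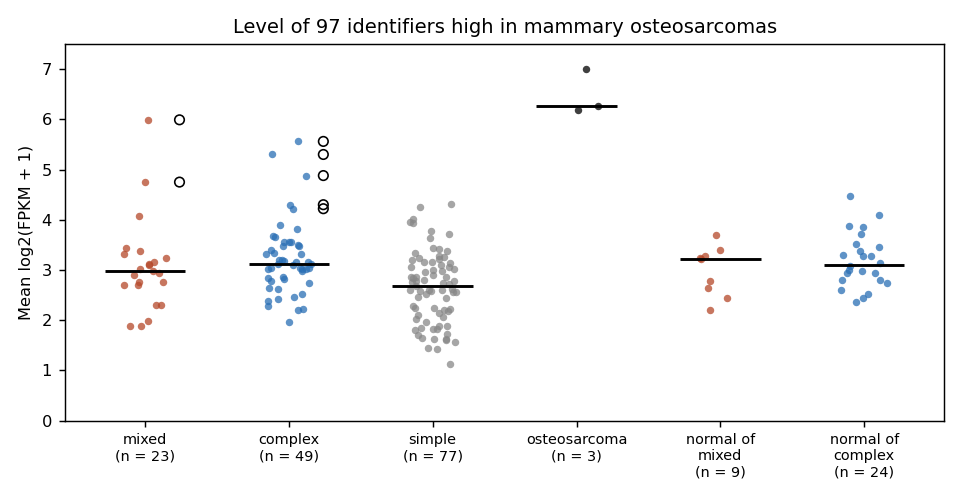
Mean log2(FPKM + 1) of 97 identifiers that were high in mammary osteosarcomas (y axis), per library and group, with a line at the group median and with open circles beside the NMF3 mixed and complex tumors. Mixed and complex tumors overlap over their whole ranges of 1.88 to 5.99 and 1.97 to 5.56, below the 3 osteosarcomas at 6.18 or more.

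On FPKM as deposited, most identifiers varied more among mixed than among complex tumors. The SD of log2(FPKM + 1) within a type was higher in mixed tumors for 10201 of 14507 identifiers (70.3%), with a median SD of 0.538 against 0.488. Identifiers are not independent of each other, and this count was not tested. The highest of the 72 tumors was a mixed one for 34.2% of identifiers, where mixed tumors make up 31.9% of the tumors. For 51 identifiers at least 5 mixed tumors lay above every complex tumor, and the most for any identifier was 8 of 23. For 128 identifiers at least 5 mixed tumors lay below every complex tumor, and the most for any identifier was 9 of 23.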

How the data were processed

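The authors aligned reads with TopHat2 2.0.9 (genome build CanFam3.1) and deposited FPKM values from Cufflinks 2.1.1 with Ensembl genes. FPKM holds no read counts, so the depth behind single values is unknown, and the 72 tumors had 52007828 to 127946473 mapped reads. Values were tested as log2(FPKM + 1) with limma 3.58.1 (R 4.3.3, empirical Bayes with a trend, two-sided) where the mean was at least 0.5 FPKM, with Benjamini-Hochberg adjustment over all identifiers tested. Malignancy came from the study's clinical table. Other tests were made with scipy 1.17.1. The scripts were tested on simulated data. Of the identifiers, 3857 were at 0 in every library and 17 repeated the values of another. No reference used here paired Ensembl identifiers with symbols, so gene lists were not analysed. The named identifiers were the 2 in each direction with the largest called difference or, with fewer than 2 calls, the smallest p, at a mean of at least 5 FPKM in the higher group, and among malignant tumors the 1 called on every scale, chosen after its values were seen. Tumor and normal tissue were paired by dog. The deviations of the pair from their group means correlated at a median of 0.18, against -0.01 for other dogs, and above 0.1 in 25 of 33 dogs. No 2 tumors had identical values. Members, comparisons and lists were chosen with earlier results of these data known. Alternatives are given in the closing section.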

Additional observations from a re-analysis of the deposited data

Results flagged for a closer look

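A value far from the others of its group, by Dixon's criterion, was found in 4 of 18 sets of values checked. The sets covered the 8 benign mixed tumors and the 9 normal tissues of dogs with mixed tumors. Chance gives about 1 in 20 groups where values are normally distributed. All 4 flags fell on FPKM on the linear scale, and 2 of them on 1 tumor, so their number does not show an excess over that rate. Mixed replicate 22, a benign tumor of NMF3, had 16.7 FPKM of ENSCAFG00000031432, with the next benign mixed tumor at 3.45. The same tumor had 255 FPKM of ENSCAFG00000006073, with the next at 70.5. In normal tissue, replicate 2 of the dogs with mixed tumors had 2.66 FPKM of ENSCAFG00000031432, with the next at 1.18, and replicate 5 had 13.4 FPKM of ENSCAFG00000018419, with the next at 6.37. No explanation was tested for any of these.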

How the results depend on the processing

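Over all 72 tumors the count of calls was 0 with every alternative but 3. It was 1 with a pseudocount of 0.1, 3 without the NMF4 and NMF5 tumors and 32 (5 higher, 27 lower) with array weights. With 1 tumor left out the count was 0 to 3, the latter without complex replicate 10, the tumor with the lowest median FPKM. Among malignant tumors (37 calls) the count was 228 with a pseudocount of 0.1, 0 with malignancy as in the labels, 1 each with upper quartile scaling, quantile normalization and grade 1 tumors only, 23 with surgery year as a covariate, 0 in 2016 only and 7 in 2017 only, all 7 higher. It was 0 to 99 with 1 tumor left out. For malignant tumors, all of these but the pseudocount and the labels were chosen after seeing the data, as were the scalings that follow. Mixed against simple tumors (6 calls) gave 10 with upper quartile scaling and 11 with quantile normalization. Complex against simple tumors (54 calls) gave 142 with a pseudocount of 0.1. Without the replicate block (tumors of the paired dogs alone) the count was 0, as with it, so there was no call for the pairing to change. By limma, 1538 identifiers had an unadjusted p under 0.05 without the block and 1068 with it. The cause of these changes was not tested. ENSCAFG00000006073 lost its adjusted p under 0.05 with 4 of 51 tumors left out in turn, and in 4 of 10 other settings. No named difference changed sign in any of these settings, which reuse the tumors on which the identifiers were picked. Read depth per identifier is unknown, so small differences at low FPKM cannot be weighed against counting error.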

Other observations

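Very high values in single tumors occurred in both types. For 68 identifiers the highest mixed tumor was at least 8-fold above the highest complex tumor on the FPKM + 1 scale, and 40 of them had that highest value in 1 malignant tumor of NMF4 (mixed replicate 23). The reverse held for 149 identifiers, 41 of them in 1 malignant complex tumor of NMF4 (complex replicate 25). In all, 15 of 23 mixed and 36 of 49 complex tumors led at least 1 such identifier.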
